A study of Rattus norvegicus with 6 samples.

Results

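Ceramide is the hub of sphingolipid metabolism. The cell builds it from serine and palmitoyl-CoA at the endoplasmic reticulum, moves it to the Golgi to become sphingomyelin or glucosylceramide, and recovers it in lysosomes when those lipids are broken down. Liver makes ceramides for its own membranes and for secretion on lipoproteins, and hepatic ceramide is widely studied in relation to dietary saturated fat and insulin action. The 10 enzymes described here cover that route: the serine palmitoyltransferase subunits Sptlc1 and Sptlc2, the ceramide synthases Cers2, Cers5 and Cers6, the desaturase Degs1, the ceramide-using enzymes Sgms1 and Ugcg, and the lysosomal hydrolases Smpd1 and Asah1. They were taken by gene symbol and not by a measured value, but the list was chosen with earlier results of these data known. Of the 10, 8 had at least 1 probe set paired with that gene alone, out of 14217 genes in all. Sptlc1 and Sptlc2, which carry out the first committed step, had none in the annotation used and were not analysed here.

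Liver RNA of Sprague-Dawley rats aged 3 weeks, at weaning, was measured on Affymetrix expression arrays, 1 array per sample. The groups were 3 offspring of dams given a high fat diet and 3 offspring of dams given standard chow. The comparison asks how the mother's diet relates to the liver of her young. The labels give neither litter nor sex, so the p-values reflect only how these samples vary, and some may share a dam. Values below are quantile-normalized log2 signals, changes are high fat minus control, and 1 unit is a doubling. A probe set is a group of short probes summarised into 1 value, and the levels of different probe sets are not comparable with each other.

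The hepatocyte markers stood at 14.46 or more on every array for all 9 measured genes, Alb among them. High fat replicate 1 also carried exocrine pancreas transcripts: the summed linear signal of 16 pancreas genes was 65058 there, against 2735 and 3476 in the other high fat arrays and 1979 to 4316 in controls. Prss1, a trypsinogen, was at 13.08 in that array and at 5.30 or less in the others. Each of the 12 endothelial markers measured was lower with the high fat diet, with sums of 15447 to 19759 against 26230 to 28723 in controls. The 4 erythroid markers tested were lower too (median -0.45, 2 at an unadjusted p under 0.05). Of 8 stellate cell and fibroblast markers 5 were higher and 3 lower (median 0.07, 4 at an unadjusted p under 0.05), and of 9 Kupffer cell and macrophage markers 3 were higher and 6 lower (median -0.04, 1 at an unadjusted p under 0.05). Over all genes tested, 14.0% had an unadjusted p under 0.05 (6.55% higher, 7.49% lower). The part of these marker groups in the values below was not tested. In high fat replicate 3 the X-inactivation transcript Xist was at 4.45, against 12.92 and 12.51 in the other high fat arrays and 12.46 to 13.31 in controls. The Y-linked Eif2s3y was at 11.14 in that array and at 3.99 or less in every other array. By these transcripts high fat replicate 3 has the pattern of a male and every other array that of a female. The part of sex in the values below was not tested. RNA integrity, read as the mean 3' minus 5' difference of the Gapdh and beta-actin control probe sets, was 1.92 to 2.46 in high fat arrays and 2.18 to 3.06 in controls.

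Among the 8 measured enzymes, the sphingomyelin synthase gene Sgms1 had the largest change. By the brightest probe set of each gene, Sgms1 was 2.15-fold higher in pups of high fat dams, while the other 7 enzymes differed by 1.22-fold or less in either direction. The dimmest Degs1 probe set was 1.44-fold higher. None of the 8 passed an adjusted p under 0.05 in limma, a linear model fitted over the 10372 genes tested, of which 0.0386% passed. In that fit of 1 probe set per gene, Sgms1 alone had an unadjusted p under 0.05, 1 of 8 against 14.0% of all genes tested (6.55% higher). Of these brightest probe sets, that of Sgms1 was also the only one whose high fat and control arrays did not overlap, 1 of 8 against 20.8% of all genes (9.26% higher). With 8 enzymes, 1 gene is 12.5%, below the share of all genes in either direction and above the share of genes that were higher. A single gene carries both counts. Their median change was 0.07, with a median of -0.02 over all genes tested.

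**Figure D1:**
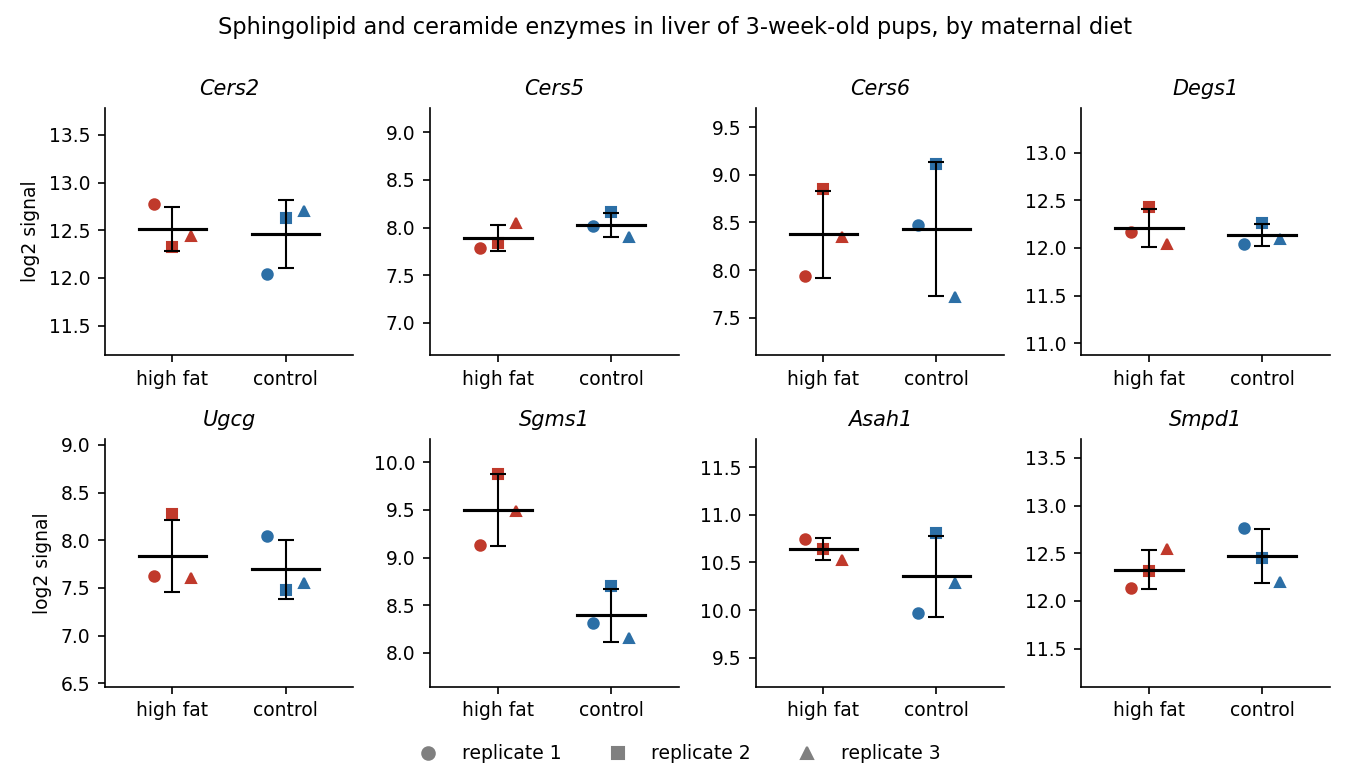
Quantile-normalized log2 signal of the main probe set of each measured enzyme, high fat arrays on the left (red) and control arrays on the right (blue) in each panel. Symbols mark the replicate number, the bar is the group mean and the whiskers are the SD (n = 3), and every panel spans the same 2.6 log2 units. The arrays of the 2 diets separate only for Sgms1.

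Sgms1 transfers phosphocholine to ceramide in the Golgi and so makes most of the cell's new sphingomyelin. Its signal was 9.13, 9.88 and 9.49 in high fat replicates 1 to 3, against 8.32, 8.70 and 8.16 in control replicates 1 to 3. Every high fat array lay above every control array, and high fat replicate 2 was the highest. The means were 9.50 ± 0.38 in the high fat group and 8.39 ± 0.28 in controls (SD, n = 3 each). The log2 change was 1.10 (SE 0.23, 95% confidence interval 0.55 to 1.66), with a limma adjusted p of 0.184 and an unadjusted p of 0.00232. Of the 10372 genes tested, 128 had a smaller p. The change was 1.29 without high fat replicate 1, the array with pancreas transcripts, and 0.91 without high fat replicate 2, the highest array. With high fat replicates 1 and 3 both left out, only high fat replicate 2 remained in its group, and the change was 1.49. The Sgms1 change was also 0.91 with RNA integrity as a covariate. Its limma adjusted p was between 0.106 and 0.556 over the 16 alternatives run.

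The Sgms1 value rests on 1 probe set. A dimmer probe set of the same gene was at 2.80, 3.45 and 4.10 in the high fat arrays and at 4.45, 3.64 and 1.91 in the controls. These values lie under the brightness limit of 5.83 set for testing, overlap fully, and differ by 0.11 in their means. With both probe sets averaged, the change was 0.61 and the unadjusted p was 0.169.

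Ugcg, which draws on the same Golgi pool of ceramide to make glucosylceramide, had a small and imprecise change between the diets. Its signal was 7.63, 8.27 and 7.60 in the high fat arrays and 8.05, 7.48 and 7.55 in the controls. The groups overlapped, with 1 high value in each, and the log2 change was 0.14 (SE 0.24). The 95% confidence interval of the fold ran from 0.740 to 1.65. Whether both enzymes changed equally was tested on the Ugcg minus Sgms1 difference within each array. That difference was -1.50, -1.61 and -1.88 in the high fat arrays and -0.27, -1.22 and -0.61 in the controls, 0.96 log2 units lower in the high fat group with no overlap. An exact permutation test (two-sided) gave p = 0.1, the smallest that 3 against 3 arrays allow, and an adjusted p of 0.3 over the 3 such differences tested. With both Sgms1 probe sets averaged, the difference was -0.47 and the exact permutation p was 0.5.

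The ceramide synthases attach a fatty acid to the sphingoid base, and each prefers certain chain lengths. Cers2, the main form in liver, makes very long chain ceramides, whereas Cers5 and Cers6 favour the shorter palmitoyl chain. Cers2 was at 12.78, 12.33 and 12.44 in the high fat arrays, against 12.05, 12.63 and 12.70 in the controls. Control replicate 1 was the lowest of the 6 arrays and the others intermingled. The log2 change was 0.06 (SE 0.22), and the fold had a 95% confidence interval of 0.724 to 1.49. The sign was not stable, since the change was -0.15 without control replicate 1 and -0.08 without high fat replicate 1.

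Cers5 was at 7.79, 7.83 and 8.05 in the high fat arrays and at 8.02, 8.16 and 7.90 in the controls. The 2 lowest arrays were of the high fat group, but high fat replicate 3 lay among the controls. The change was -0.14 (SE 0.14), with a 95% confidence interval of the fold from 0.723 to 1.15.

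Cers6 varied most within the groups. It was at 7.93, 8.85 and 8.35 in the high fat arrays and at 8.47, 9.11 and 7.71 in the controls, so replicate 2 of each diet was the highest of its group. The SD was 0.46 in the high fat group and 0.70 in controls, against medians over all genes tested of 0.19 and 0.21. The change of -0.06 (SE 0.39) therefore left a wide interval, a fold of 0.510 to 1.81, and a difference of that size in either direction was not detectable with 3 arrays per group.

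The balance of the synthases was compared within arrays as well. Cers6 minus Cers2 differed between the diets by -0.11 log2 units, at -4.14 ± 0.68 in the high fat group and -4.03 ± 0.83 in controls (SD, n = 3 each; exact permutation p = 1.0). Cers5 minus Cers2 differed by -0.19, at -4.63 ± 0.32 in the high fat group and -4.43 ± 0.39 in controls (SD, n = 3 each; exact permutation p = 0.5). Both differences lay within the spread between arrays of a group. The level of each difference depends on the probes and only its change between diets can be read.

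Degs1 introduces the double bond that turns dihydroceramide into ceramide. Its brightest probe set was at 12.16, 12.43 and 12.04 in the high fat arrays and at 12.04, 12.26 and 12.10 in the controls, intermingled, with a change of 0.08 (SE 0.15) and a 95% confidence interval of the fold from 0.824 to 1.35. The other probe sets of Degs1 gave larger values. The second in brightness was at 10.90, 10.89 and 10.55 in high fat arrays and 10.31, 10.63 and 10.58 in controls, a change of 0.27 (SE 0.17) with overlap.

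The dimmest Degs1 probe set was at 8.94, 8.94 and 8.95 in the high fat arrays and at 8.18, 8.48 and 8.60 in the controls. The high fat arrays were almost identical to each other there and all lay above the controls. Its change was 0.52 (SE 0.16), 1.44-fold, with an unadjusted p of 0.0124 and a limma adjusted p of 0.306 over the 18625 probe sets above the brightness limit. All 3 probe sets of Degs1 thus had the same sign, with sizes from 0.08 to 0.52, and none passed the adjusted test. They were read on the same arrays and are not independent, and the brightest was at -0.03 without high fat replicate 2.

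**Figure D2:**
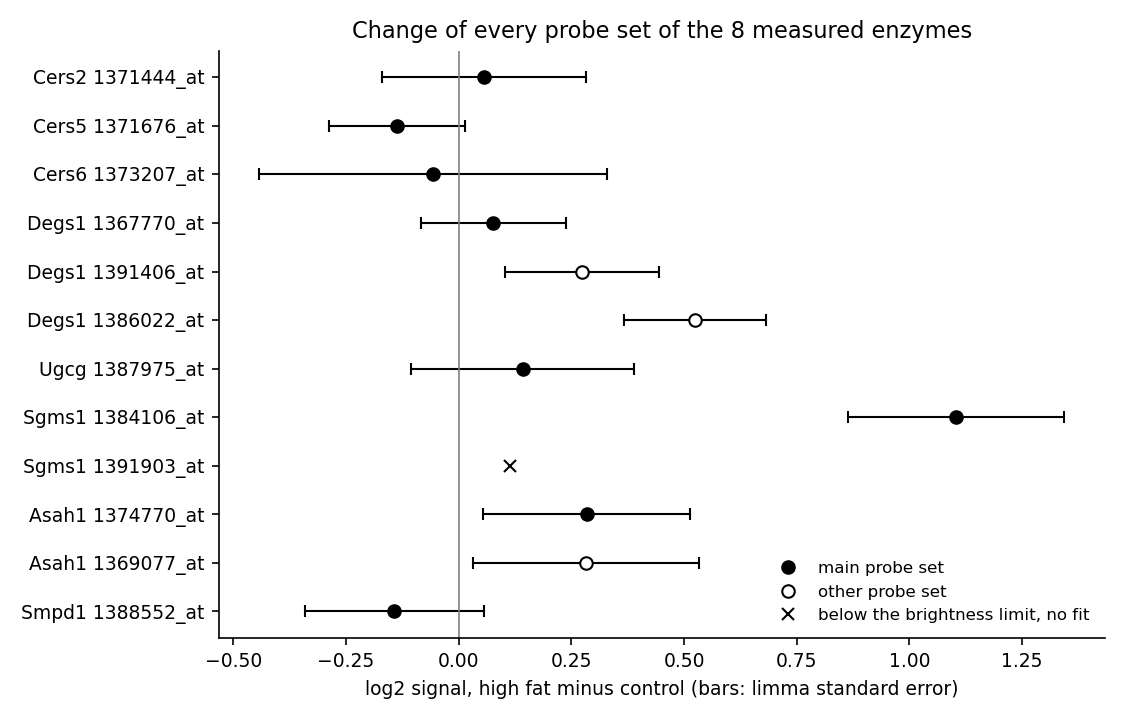
Log2 change, high fat minus control, of each of the 12 probe sets of the 8 measured enzymes, with limma's standard error from the fit over probe sets. Filled circles are the brightest probe set of a gene, open circles its other probe sets, and the cross is the Sgms1 probe set under the brightness limit, which was not tested. The Degs1 probe sets spread from 0.08 to 0.52, and the bright Sgms1 probe set lies apart at 1.10.

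In the lysosome, Smpd1, the acid sphingomyelinase, splits sphingomyelin into ceramide, and Asah1, the acid ceramidase, cleaves ceramide to sphingosine. Smpd1 was at 12.13, 12.31 and 12.54 in the high fat arrays and at 12.77, 12.45 and 12.20 in the controls. The groups overlapped, with a change of -0.14 (SE 0.19) and a 95% confidence interval of the fold from 0.661 to 1.24. Without control replicate 1, the highest array, the change was 0.0047.

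Asah1 was at 10.75, 10.65 and 10.52 in the high fat arrays, a narrow range inside that of the controls, at 9.97, 10.81 and 10.29. The change was 0.28 (SE 0.22), and a second, dimmer probe set gave 0.28 (SE 0.25). The 95% confidence interval of the fold was 0.842 to 1.76. The 2 probe sets thus gave the same size, yet the estimate depended on single arrays, at 0.09 without control replicate 1 and 0.51 without control replicate 2.

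Other genes of the pathway were read as a wider list of 75, of which 62 had a probe set paired with that gene alone and 51 were bright enough to be tested. No gene of the list passed an adjusted p under 0.05 in limma. At an unadjusted p under 0.05 there were 7, all lower in the high fat group, which is 13.7% of the list beside 14.0% of all genes in either direction and 7.49% of all genes lower. In all, 36 of 51 were below 0 (70.6%), with a median change of -0.15, beside 53.1% and a median of -0.02 over all genes tested. The counts and medians by group below have that same background, and any change below 0, however small, is counted as lower. The groups did not overlap for 13 genes (25.5%), 4 higher and 9 lower, beside 20.8% of all genes, 9.26% higher and 11.6% lower.

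**Figure D3:**
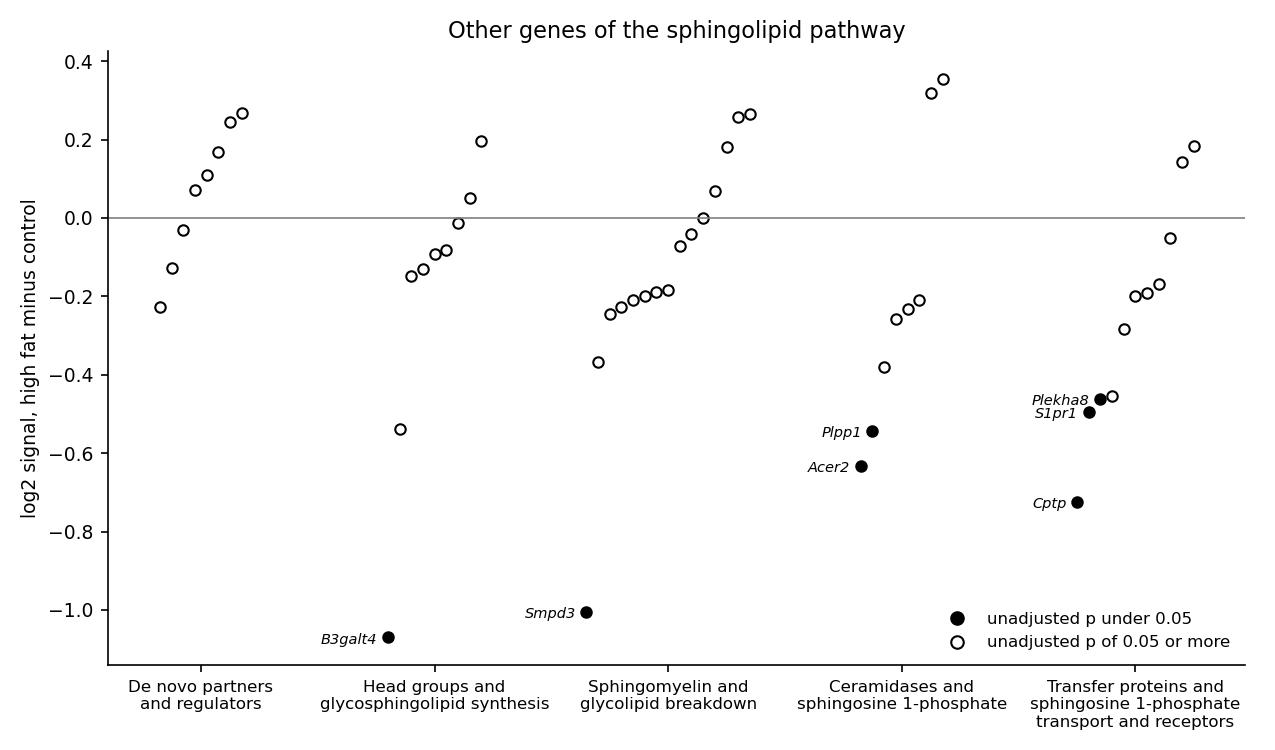
Log2 change, high fat minus control, of the 51 tested genes of the wider sphingolipid list, in 5 groups by role and ordered by size within each. Filled points had an unadjusted p under 0.05 in limma, and none of them passed after adjustment. All 7 filled points lie below 0, from -0.46 to -1.07.

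Changes of the partners of the de novo route ran from -0.23 to 0.27. Of 8 tested genes, 5 were higher and 3 lower, with a median of 0.09 and none at an unadjusted p under 0.05. Sptssa, the small activating subunit of serine palmitoyltransferase, was at 12.50, 12.64 and 12.51 in the high fat arrays, against 12.21, 12.42 and 12.27 in the controls. The groups were apart by a narrow margin, and the change was 0.25 (SE 0.13, limma adjusted p = 0.442). Hacd2 (0.27, SE 0.18) and Hacd3 (-0.23, SE 0.21), dehydratases of the elongation cycle that supplies very long chain fatty acids, went opposite ways with overlap. Dimmer probe sets were at 0.56 for Hacd2, under the brightness limit, and at -0.04 (SE 0.14) for Hacd3. With 1 array left out, the smallest changes were 0.09 for Hacd2 and -0.03 for Hacd3.

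Enzymes that add head groups to ceramide or extend its sugar chain were mostly lower, 7 of 9, with a median of -0.09. B3galt4, the galactosyltransferase that makes the ganglioside GM1, was at 6.82, 6.85 and 7.03 in the high fat arrays, against 7.60, 8.35 and 7.96 in the controls. No array of one diet overlapped the other, and the change was -1.07 (SE 0.21, limma adjusted p = 0.170). It is 1 of the 7 genes at an unadjusted p under 0.05.

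Sgms2, the second sphingomyelin synthase and the form found at the plasma membrane, had a value of the opposite sign to that of Sgms1. It was at 5.59, 6.22 and 6.62 in the high fat arrays and at 6.59, 6.74 and 6.71 in the controls, overlapping only through high fat replicate 3. The change was -0.54 (SE 0.26, limma adjusted p = 0.409), and it was -0.26 without high fat replicate 1, whose value lies under the brightness limit. The difference between Sgms1 and Sgms2 was not tested. Cerk, the ceramide kinase, had a change of -0.15 (SE 0.14).

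Among genes that break down sphingomyelin and glycolipids, 11 of 15 were lower, with a median of -0.18. The 11 include Arsa, at -0.00024. An unadjusted p under 0.05 was found for 1 of the 15 (6.67%, beside 14.0% of all genes). Smpd3, the neutral sphingomyelinase that acts at the plasma membrane, was at 7.09, 6.52 and 7.34 in the high fat arrays, against 8.09, 7.88 and 7.98 in the controls. The controls lay close together and above all high fat arrays, and the change was -1.0 (SE 0.22, limma adjusted p = 0.186). It was -0.77 without high fat replicate 2, the lowest array. The non-lysosomal glucosylceramidase Gba2 was at -0.37 (SE 0.20) and Gm2a, which presents ganglioside to its lysosomal hydrolase, at -0.21 (SE 0.13), and neither had an unadjusted p under 0.05.

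Genes of the ceramidases and of sphingosine 1-phosphate, the signalling lipid made from ceramide's backbone, were lower in 6 of 8, with a median of -0.25. Acer2, the Golgi ceramidase, was at 10.68, 10.21 and 10.30 in the high fat arrays and at 11.03, 11.12 and 10.94 in the controls. The groups did not overlap, and the change was -0.63 (SE 0.16, limma adjusted p = 0.211). A second Acer2 probe set, also without overlap, was at -0.66 (SE 0.20).

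Plpp1, a phosphatase of lipid phosphates, was at -0.54 (SE 0.21, limma adjusted p = 0.334), but a dimmer probe set was at 0.01 (SE 0.24). Its high fat values of 10.06, 10.52 and 10.17 overlapped the controls, at 11.00, 10.41 and 10.96, through replicate 2 of each. Aldh3a2, which oxidises the fatty aldehyde released from sphingosine 1-phosphate, was higher at 13.72, 13.71 and 13.88 in the high fat arrays, against 13.35, 13.65 and 13.36 in the controls (0.32, SE 0.14, limma adjusted p = 0.375).

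**Figure D4:**
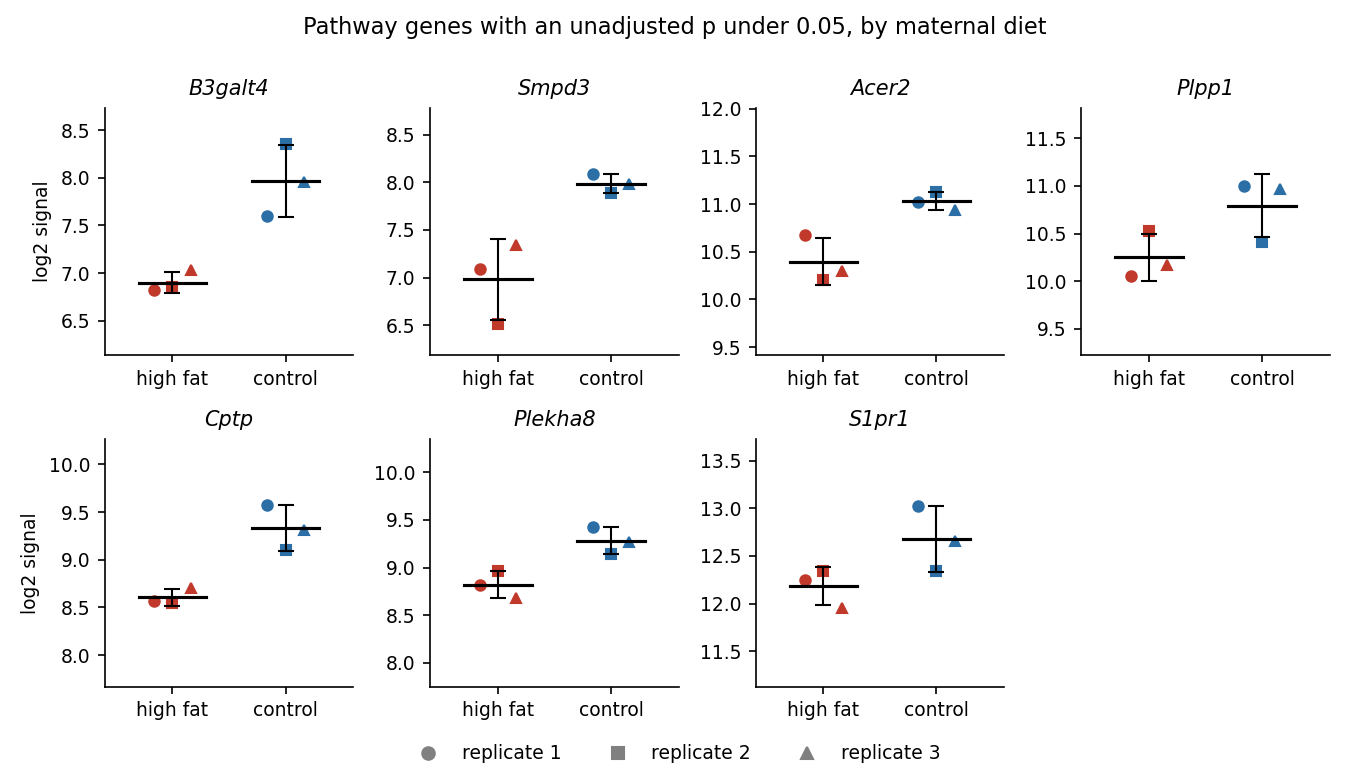
Quantile-normalized log2 signal of the 7 wider-list genes with an unadjusted p under 0.05, high fat arrays on the left (red) and control arrays on the right (blue), drawn as in the plot of the enzymes with mean and SD (n = 3). The diets do not overlap for B3galt4, Smpd3, Acer2, Cptp and Plekha8, and do for Plpp1 and S1pr1. The genes were picked by p on these same arrays, so the separation is not a further result. Of all genes, 11.6% were lower without overlap.

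Transfer proteins and the transporters and receptors of sphingosine 1-phosphate were lower in 9 of 11, with a median of -0.20. Cptp, which carries ceramide 1-phosphate between membranes, was at 8.57, 8.55 and 8.71 in the high fat arrays and at 9.58, 9.10 and 9.31 in the controls. The groups did not overlap, and the change was -0.72 (SE 0.16, limma adjusted p = 0.184).

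Plekha8, which moves glucosylceramide through the Golgi, was at 8.82, 8.96 and 8.68 in the high fat arrays and at 9.43, 9.14 and 9.27 in the controls (-0.46, SE 0.14, limma adjusted p = 0.265). Its probe sets disagreed in sign, since dimmer ones were at 0.07 (SE 0.21) and 0.40 (SE 0.17).

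S1pr1, a sphingosine 1-phosphate receptor prominent on endothelial cells, was at 12.24, 12.34 and 11.96 in the high fat arrays and at 13.03, 12.34 and 12.66 in the controls. The change was -0.49 (SE 0.21, limma adjusted p = 0.354), and -0.32 without control replicate 1, the highest array. A second S1pr1 probe set, under the brightness limit, was at 5.62, 5.37 and 5.51 in the high fat arrays and 4.41, 5.42 and 5.42 in the controls, a difference of 0.41. With both averaged the change was -0.04. All 12 endothelial markers were lower in the same arrays, with a median of -0.59. At an unadjusted p under 0.05 there were 9 of the 12, beside 7.49% of all genes lower at that p. The part of the endothelial markers in the S1pr1 value was not tested. In whole liver, fewer cells of a type and less RNA per cell cannot be told apart.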

How the data were processed

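The values table holds 31099 probe sets on 6 arrays, deposited on a log2 scale. That scale was found from the values, since read as base 2 they give each array the same 2% trimmed mean (500.2 linear units). Per the labels' protocols, RNA was amplified with a 3' labelling kit; how probes were summarised, and by which software, is not given in these sources, and detection calls were not used. Quartiles differed by up to 0.22 between arrays, above a limit of 0.1, so arrays were quantile-normalized without the 57 control probe sets. Genes were named from the platform annotation, with 20758 of 20826 symbols matched in a current RefSeq table. Each gene took its brightest probe set by mean over all arrays, and the lowest 40% of probe sets, under 5.83, were left out. The diets were compared in limma 3.58.1 (R 4.3.3) with two-sided tests (Benjamini-Hochberg over 10372 genes), and a self-test ran on simulated data. Figures used matplotlib 3.10.9.

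The text names all 10 enzymes and, from each of the 5 groups of the wider list, the 3 tested genes with the smallest p. The enzymes, lists and tests were chosen with earlier results of these data known. Replicate numbers were not used as pairs in the main fit. Deviations of same-numbered arrays correlated at -0.13, -0.13 and -0.14, and those of differently numbered arrays at 0.04 to 0.08. The deviations are from means of 3 arrays and no reference values were computed, so these correlations cannot exclude pairing. Alternatives covered normalization, brightness filter, probe set handling, variance model, array weights, the block, RNA integrity and arrays left out. Positions are left out because the files carry no genome build.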

Additional observations from a re-analysis of the deposited data

How the results depend on the processing

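Over 16 alternatives, no enzyme and no named gene of the wider list passed the adjusted threshold in any, and Sgms1, Cers5 and Asah1 kept their sign in all. Of 128 values for the 8 enzymes, 118 kept their direction and 10 did not. The settings of the brightness filter, the variance model and the replicate block leave the change itself as it was. They could not alter a direction, nor could averaging probe sets for an enzyme with 1 probe set, so the 118 includes values fixed in advance. With 1 array left out, changes ran from -0.15 to 0.18 for Cers2, -0.42 to 0.28 for Cers6, -0.031 to 0.16 for Degs1, -0.079 to 0.32 for Ugcg, -0.28 to 0.0047 for Smpd1 and 0.91 to 1.29 for Sgms1. With high fat replicates 1 and 3 both left out, which leaves 1 high fat array assumed to vary like the controls, Cers2 was at -0.13 and Cers6 at 0.41, the median of the enzymes was 0.29, 4 of 8 enzymes did not overlap (58.2% of all genes then), and Cers6 minus Cers2 was 0.54. With the RNA integrity covariate Ugcg was at -0.077. With all probe sets of a gene averaged, 0 enzymes in limma had an unadjusted p under 0.05 (1 as reported), the wider list had 3 of 49 (7 of 51 as reported; 12.9% of all genes) and a median of -0.081, and Plekha8 was at 0.00075. With a mean-variance trend the wider list had 11 of 51 (14.6% of all genes). The replicate block gave Sgms1 a limma adjusted p of 0.274. With it, 5 genes of the wider list had an unadjusted p under 0.05 (10.6% of all genes). No enzyme or gene of the wider list passed after adjustment with or without the block. Over all genes, 0 passed with the block and 4 in the main fit. With 1 array left out, 1 to 2 enzymes had an unadjusted p under 0.05 (10.2% to 13.2% of all genes), 1 to 2 did not overlap (29.1% to 33.2% of all genes), and their median was -0.05 to 0.14. For the wider list there were 5 to 9 genes and medians of -0.16 to -0.082, with 33 to 37 of 51 genes below 0. Cers6 minus Cers2 ran from -0.59 to 0.24, Cers5 minus Cers2 from -0.38 to 0.0071 and Ugcg minus Sgms1 from -1.22 to -0.75, against -0.47 with all probe sets averaged. The causes of these shifts were not tested beyond the fewer arrays or other probe sets that each alternative uses. The counts without overlap, of genes below 0, and the values of the named wider genes were added to the alternatives after the data were seen. Dim probe sets have no measured lower bound.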
